A study of Arabidopsis thaliana with 25 samples.

Results

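Cotyledons that had been green from germination were compared with cotyledons caught in the middle of greening. The former, labelled L, came from wild-type (WT) Arabidopsis thaliana seedlings grown for 5 days under long days, and the latter from wild-type seedlings grown for 5 days in darkness and then given 6 h of continuous light. Both groups were grown on half-strength Murashige and Skoog medium (MS 1/2), fixed in acetone and dissected, and the extraction mix included Drosophila cells, whose RNA gives a reference from outside the plant. Each group held 5 libraries, replicates 1 to 5, so 10 of the 25 libraries of the series enter the comparison, over 38676 Arabidopsis entries of which 20615 had enough counts to test. The other 15 libraries (dark, and 1 h and 24 h of light) entered the count filter, the scaling and the estimate of the spread between libraries, but not the contrast itself. The groups differ by 6 h of age, in the length and rhythm of light and possibly in the hour of harvest, which is not given, so these cannot be told apart. The labels number biological replicates without naming separate sowings, so the p-values rest on the spread among these samples, which may be technical.

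A dark-grown seedling keeps its cotyledons small, closed and pale, with etioplasts in place of chloroplasts. Light activates phytochromes and cryptochromes, the repressor complex of COP1 and SPA proteins loses its hold on factors such as HY5, and cells make chlorophyll, photosystems and carbon-fixing enzymes while the epidermis forms stomata. A long-day cotyledon has completed that change, is driven by daily light and dark, and feeds the seedling by photosynthesis after seed oil has been used up.

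Libraries of the 10 held 19315953 to 24085995 counts. Gene levels are spike-scaled CPM, counts scaled to a common library size (CPM), with each library size set by its Drosophila counts, and log2 fold changes are L minus 6 h with their standard error. Because this scale counts RNA per unit of fly RNA, a second scale, TMM over Arabidopsis genes, was set beside it, which takes the typical gene as unchanged. A level is followed by ± its SD over 5 libraries, and a log2 fold change by ± its SE. Calls are edgeR quasi-likelihood tests at a Benjamini-Hochberg adjusted p under 0.05. Values for single libraries are given in the order of replicates 1 to 5. Levels here are not divided by gene length, so they are compared between libraries and not between genes.

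Some libraries stood apart. In both groups replicates 1 and 2 held a smaller plastid share of the Arabidopsis counts (0.549% to 2.96%) than replicates 3 to 5 (3.83% to 8.83%). Over genes whose mean reached 10 CPM, replicate 3 was the isolated lowest library for 496 of 14319 genes in L and for 495 of 8776 at 6 h, and by the same criterion (Dixon's, at the 95% level) no other library was isolated at the low end for any of them. Several clock, sugar-response and stress genes were far from the other L libraries in L replicate 5, and several results are given with and without it.

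L cotyledons yielded more nuclear RNA relative to fly RNA. Nuclear Arabidopsis counts per Drosophila count were 98.3, 94.5, 44.7, 127 and 104 at 6 h and 462, 536, 219, 466 and 377 in L. The lowest L library lay above the highest 6 h library, and the means were 93.7 ± 30.3 and 412 ± 122, a log2 difference of 2.15 ± 0.34 or 4.45-fold (two-sided exact permutation p = 0.00794, adjusted over 5 measures 0.0198). That p is the smallest that 5 against 5 can give, and treating like-numbered libraries as 5 pairs (a replicate block) gave an exact sign-flip p of 0.0625, again the smallest possible (adjusted 0.0781). Within replicates 1 and 2 the log2 difference was 2.37 and within replicates 3 to 5 it was 2.01. Without the 100 most abundant Drosophila genes it was 1.98 over all 10 libraries. More cells in a cotyledon, more RNA per cell and a different amount of tissue per fly cell cannot be told apart here.

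**Figure D1:**
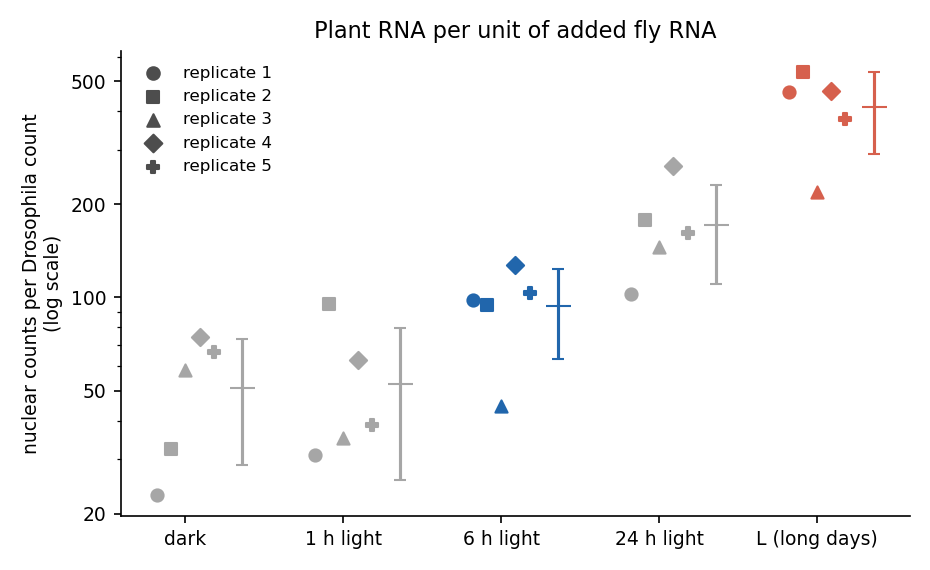
Nuclear-encoded Arabidopsis counts per Drosophila count in every library, on a log axis, with symbols for replicates 1 to 5 and the mean ± SD at the right of each group. The 5 L libraries lie between 219 and 536, all above the 6 h libraries at 44.7 to 127, and dark, 1 h and 24 h are shown in grey for orientation.

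Most single genes were higher per fly RNA too. Of 20615 genes 16668 were called higher in L (80.9%) and 150 lower (0.728%), and the median log2 fold change was 1.83. With other fly-based scales that median was smaller, 1.38 with TMM over Drosophila genes and 1.47 with DESeq2 on Drosophila factors. Relative to the typical gene 3834 were higher (18.6%) and 3223 lower (15.6%), around a median of 0.0021. All directions below must be read against that shift of 1.82 between the scales, and counts of list members called against these shares of all genes. Genes called under both scales in the same direction numbered 3834 higher (18.6%) and 141 lower (0.684%), and 1092 were called higher per fly RNA but lower relative to the typical gene (5.3%). Calls per fly RNA were 14564 higher and 229 lower in replicates 1 and 2 alone, with a median of 2.18, and 12751 and 111 in replicates 3 to 5 alone, with a median of 1.55. Per fly RNA every L library was above every 6 h library in 11877 of the 20615 genes, and below in 49. Separation with L above was therefore common, and the single genes below must be read against that.

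**Figure D2:**
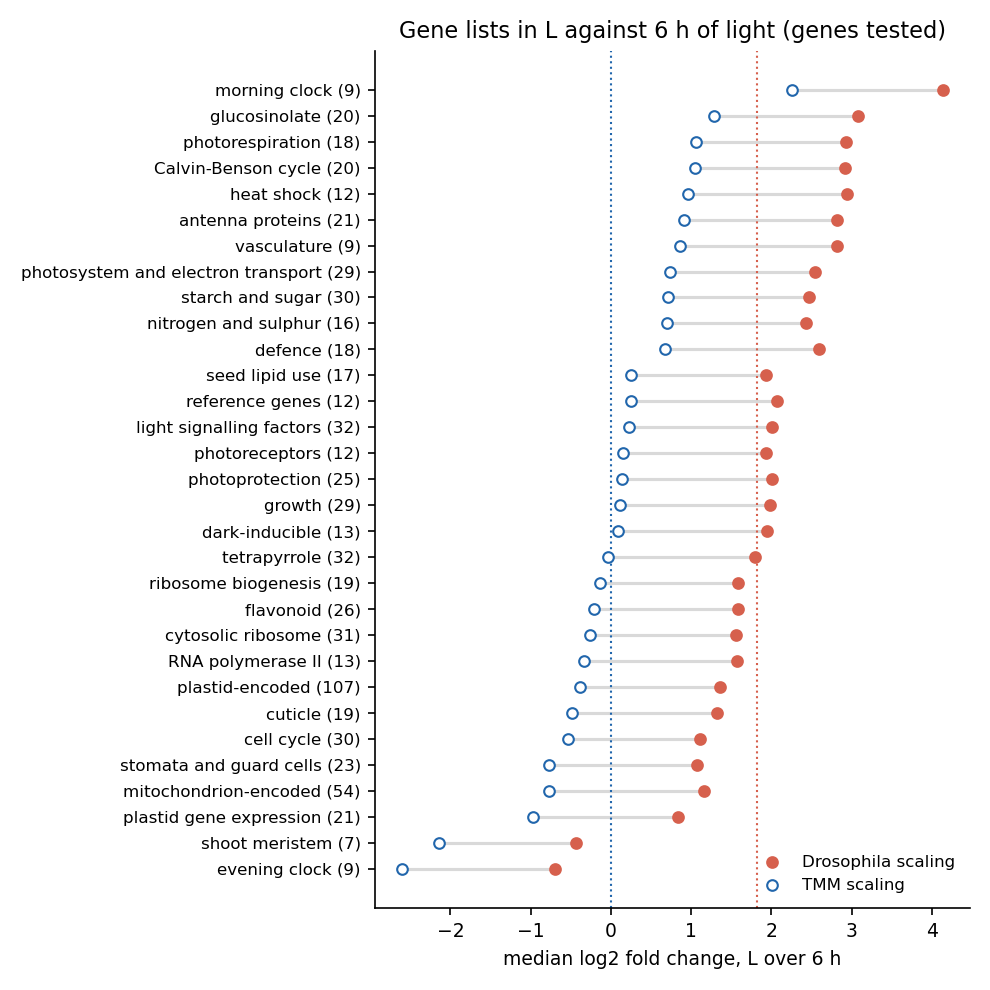
Median log2 fold change, L over 6 h, of each gene list per fly RNA (filled) and under TMM scaling (open), with the number of genes tested in brackets; dotted lines mark the medians of all 20615 genes, 1.83 and 0.0021. The morning clock list lies farthest to the right (4.14 and 2.25) and the evening clock list farthest to the left (-0.69 and -2.60).

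Genes of the photosynthetic apparatus were higher in L, all of those tested per fly RNA and part of them on both scales. The antenna proteins, which bind chlorophyll and pass excitation to the reaction centres, were higher for all 21 of 21 genes per fly RNA and for 15 under TMM scaling, where 18.6% of all genes were higher, with medians of 2.81 and 0.91. Without L replicate 5 the count under TMM scaling was 11 and the median 0.66. The gene for LHCB2.1 (AT2G05100), an antenna protein of photosystem II, had 1586, 1851, 956, 3332 and 2667 CPM in the 6 h libraries and 16386, 17559, 6958, 22963 and 25079 CPM in the L libraries. Every L library was above every 6 h library, as in 11877 of 20615 genes per fly RNA. The fold change was 3.098 ± 0.57 (adjusted p = 3.74e-05) per fly RNA and 1.31 (adjusted p = 0.00228) under TMM scaling. LHCB2.3 (AT3G27690, 3.23 ± 0.64), LHCB2.2 (AT2G05070, 3.17 ± 0.61) and LHCB1.4 (AT2G34430, 3.23 ± 0.84; 2.55 without L replicate 5) had the largest fold changes per fly RNA, though LHCB1.4 was not called under TMM scaling (1.48, 0.186). The abundant LHCB1.3 (AT1G29930) had 11613 ± 3899.9 CPM at 6 h and 55914 ± 24555 CPM in L, a fold change of 2.27 ± 0.53 that was not called under TMM scaling (0.45, 0.405). Antenna genes of one subfamily are near-identical, and 3 of the list also occur in entries that merge several genes, so the split of counts between copies is uncertain.

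Subunits of the photosystems and of electron transport were higher for 29 of 29 genes per fly RNA and 15 under TMM scaling (medians 2.55 and 0.73). PSBO1 (AT5G66570), of the water-splitting complex, had 2447 ± 1116 CPM at 6 h and 19373 ± 5758 CPM in L (2.98 ± 0.54; TMM 1.203). PSBO2 (AT3G50820), its paralogue, gave 2.86 ± 0.59, the Rieske iron-sulphur protein gene PETC (AT4G03280) 2.90 ± 0.53 and the photosystem I gene PSAH1 (AT3G16140) 2.89 ± 0.55. The antenna and photosystem medians per fly RNA were 2.85 and 2.65 in the set of replicates 1 and 2, against 2.67 and 2.40 in the set of replicates 3 to 5.

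Genes of carbon fixation and of the salvage of its side product were also higher. In the Calvin-Benson cycle all 20 of 20 genes were higher per fly RNA and 15 under TMM scaling (medians 2.92 and 1.05). RBCS1A (AT1G67090), for the small subunit of Rubisco, had 14276, 14980.2, 10448, 29694 and 22881 CPM at 6 h and 153999, 197414, 104852, 214921 and 153190.0 CPM in L. The L libraries were all above the 6 h libraries, by 3.16 ± 0.53 (adjusted p = 1.27e-05; TMM 1.35, 9.58e-05). GAPA1 (AT3G26650, 3.39 ± 0.55), for a chloroplast glyceraldehyde-3-phosphate dehydrogenase, FBA2 (AT4G38970, 3.19 ± 0.60), for a plastid aldolase, and RCA (AT2G39730, 3.15 ± 0.57), for Rubisco activase, were the others most changed. Of the Calvin-Benson members 6 also occur in merged entries. Photorespiration gave 18 of 18 higher and 16 under TMM scaling (medians 2.93 and 1.07). There the peroxisomal catalase gene CAT2 (AT4G35090) had 542 ± 265 CPM at 6 h and 8089 ± 4727 CPM in L (3.90 ± 0.61; TMM 2.09). GGT2 (AT1G70580, 3.61 ± 0.59), for a glutamate-glyoxylate aminotransferase, GLDP2 (AT2G26080, 3.33 ± 0.59), for the P protein of glycine decarboxylase, and PGLP1 (AT5G36700, 3.25 ± 0.60), for phosphoglycolate phosphatase, came next. Within replicates 1 and 2 the medians per fly RNA were 3.14 for the Calvin-Benson cycle and 3.32 for photorespiration, and within replicates 3 to 5 2.56 and 2.63.

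Among genes of starch and sucrose 27 of 30 were higher per fly RNA, and 17 were higher and 1 lower under TMM scaling. The granule-bound starch synthase gene GBSS1 (AT1G32900), which makes amylose, was the most changed gene of the list. It had 2.19, 3.90, 1.31, 7.03 and 6.85 CPM at 6 h and 2519.7, 2472, 717, 391 and 51.8 CPM in L, so all L libraries were above all 6 h libraries and L replicate 5 held the lowest of the L values. The fold change was 8.18 ± 0.92 (adjusted p = 2.92e-08; TMM 6.36, 1.37e-07). SPSC (AT4G10120, 4.61 ± 0.57), for a sucrose-phosphate synthase, APS1 (AT5G48300, 3.46 ± 0.62), for the small subunit of ADP-glucose pyrophosphorylase, and SS2 (AT3G01180, 3.45 ± 0.57), for a starch synthase, were higher as well. The debranching enzyme gene ISA3 (AT4G09020), which acts in starch breakdown, had 5.90 ± 3.11 CPM at 6 h and 9.85 ± 8.20 CPM in L, a value of 0.74 ± 0.53 that was not called (adjusted p = 0.19) and that was -0.93 under TMM scaling (0.0409). It was the lower call of the list on that scale, with 5 such calls without L replicate 5, and the call was lost without L replicate 1.

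Relative to the typical gene, genes of chlorophyll metabolism were called in both directions, as were genes in general. Of 32 tetrapyrrole genes 27 were higher per fly RNA (median 1.79), against 80.9% of all genes. Relative to the typical gene 6 were higher and 7 lower (median -0.03), against 18.6% and 15.6% of all genes. Without L replicate 4 the lower ones numbered 11. The 6 higher genes were CRD1, CHLP, CAO, HO1, SGR1 and PAO, and the 7 lower ones were HEMC, HEME1, HEME2, HEMF1, CHLD, PORB and NYC1. CRD1 (AT3G56940), for the cyclase that closes the fifth ring, had 1325 ± 677 CPM at 6 h and 11398 ± 4037 CPM in L (3.104 ± 0.57; TMM 1.33). CAO (AT1G44446, 3.04 ± 0.53), which makes chlorophyll b, PAO (AT3G44880, 2.83 ± 0.49), for pheophorbide a oxygenase, and HO1 (AT2G26670, 2.74 ± 0.50), for the haem oxygenase of the phytochrome chromophore, were the others most changed per fly RNA.

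The 3 protochlorophyllide reductase genes, whose enzymes need light to work, had different values. PORC (AT1G03630), the form of green tissue, had 123 ± 54.9 CPM at 6 h and 545 ± 242 CPM in L (2.15 ± 0.60, adjusted p = 0.002; TMM 0.37, 0.375). PORB (AT4G27440) had 201, 263, 96.1, 338 and 365 CPM at 6 h and 43.5, 46.5, 59.2, 223 and 883 CPM in L, where replicate 5 was far above the others. Its value of -0.01 ± 0.64 was not called (adjusted p = 0.991), and it was -1.44 and called without L replicate 5 and -1.63 under TMM scaling (0.0318). PORA (AT5G54190), abundant in etiolated tissue, had 2.05, 12.7, 1.84, 10.2 and 10.4 CPM at 6 h and 0.884, 0.808, 11.8, 39.6 and 3.92 CPM in L, so the groups overlapped (0.61 ± 0.73, adjusted p = 0.428; TMM -0.92).

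Of 25 genes for protection against excess light 20 were higher per fly RNA, a share like the 80.9% of all genes, and 9 were higher and 4 lower under TMM scaling (medians 2.01 and 0.14). The early light-induced gene ELIP1 (AT3G22840), whose protein accumulates in thylakoids during greening and light stress, had 3038, 3342, 1827, 6101 and 3785 CPM at 6 h and 3454, 4745, 1399, 3091 and 322 CPM in L. The groups overlapped, with -0.48 ± 0.71 per fly RNA (adjusted p = 0.53) and -2.39 under TMM scaling (0.00347). ELIP2 (AT4G14690) had 2262 ± 1100.0 CPM at 6 h and 4625 ± 3734 CPM in L (1.03 ± 0.64, adjusted p = 0.133; 1.33 without L replicate 5 with a call), and its value turned to -0.86 under TMM scaling (0.13). The carotenoid hydroxylase gene BCH2 (AT5G52570) had 21.0 ± 7.94 CPM at 6 h and 597 ± 546 CPM in L (4.83 ± 0.63; TMM 2.88). VTE1 (AT4G32770, 4.45 ± 0.61), for tocopherol cyclase, ZEP (AT5G67030, 3.77 ± 0.54), for the zeaxanthin epoxidase of the xanthophyll cycle, and FSD1 (AT4G25100, 3.75 ± 0.56), for an iron superoxide dismutase, were also higher on both scales.

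Entry genes of phenylpropanoid synthesis were higher in L, and some genes at the anthocyanin end were lower. Of 28 genes 26 were tested. Per fly RNA 12 were higher and 3 lower, against 80.9% and 0.728% of all genes. Under TMM scaling 4 were higher and 7 lower, against 18.6% and 15.6% of all genes. Without L replicate 5 these counts were 15 and 2 per fly RNA, and 6 and 6 under TMM scaling, of 27 tested. The 4 higher on both scales were entry enzymes, PAL1 (AT2G37040, 3.61 ± 0.68) and PAL2 (AT3G53260, 3.60 ± 0.65) for phenylalanine ammonia-lyase, and C4H (AT2G30490, 3.27 ± 0.62) and 4CL1 (AT1G51680, 4.22 ± 0.63) for the enzymes that follow it. PAL1 had 106, 128, 55.3, 141 and 111 CPM at 6 h and 2374, 2985, 896, 241 and 100.1 CPM in L. Replicates 1 to 3 of L were high, and L replicate 5 fell within the 6 h range. The anthocyanin malonyltransferase gene AT5MAT (AT3G29590), at the end of the pathway, had 5.48, 13.0, 7.05, 21.2 and 17.5 CPM at 6 h and 2.83, 1.21, 4.81, 2.72 and 0.852 CPM in L. The L libraries were all below the 6 h libraries (-2.34 ± 0.66, adjusted p = 0.00215; TMM -3.84). The anthocyanin glycosyltransferase gene UGT79B1 (AT5G54060, -1.9997 ± 0.65; -2.74 without L replicate 3) and MYB111 (AT5G49330, -1.65 ± 0.65; -1.41 without L replicate 5 with the call lost), for a regulator of flavonol synthesis, were lower too.

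LDOX (AT4G22880), for anthocyanidin synthase, had 21.6 ± 12.5 CPM at 6 h and 9.96 ± 8.88 CPM in L (-1.11 ± 0.64, adjusted p = 0.105, not called; -1.58 without L replicate 4 with a call), and under TMM scaling it was called lower (-2.61, 0.00337). DFR (AT5G42800), for dihydroflavonol reductase, had 15.9 ± 9.10 CPM at 6 h and 9.71 ± 7.51 CPM in L (-0.70 ± 0.70, adjusted p = 0.344), with -2.17 under TMM scaling (0.0273). TT4 (AT5G13930), for chalcone synthase, had 262, 349, 307, 861 and 669 CPM at 6 h and 2528, 2648, 1578, 1058 and 122 CPM in L, not called at 1.697 ± 0.86 (adjusted p = 0.0659; TMM -0.10). It was called without L replicate 5 (1.996) and in the fit blocked by replicate number (2.44, adjusted p = 0.00508). The list's median per fly RNA was 2.56 within replicates 1 and 2 and 0.32 within replicates 3 to 5, and under TMM scaling it changed sign between them (0.41 and -0.82).

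Among 33 factors of light signalling 32 were tested, of which 25 were higher and 1 lower per fly RNA, and 9 and 5 under TMM scaling. Of all genes 80.9% were higher per fly RNA, and 18.6% higher and 15.6% lower under TMM scaling. GLK1 (AT2G20570), which switches on nuclear photosynthesis genes, had 9.49, 23.4, 10.3, 37.9 and 35.4 CPM at 6 h and 833, 979, 306, 103 and 176 CPM in L. No L library was as low as any 6 h library (4.36 ± 0.63, adjusted p = 1.52e-06; TMM 2.54, 3.52e-05). The phytochrome-interacting factor genes PIF5 (AT3G59060, 3.59 ± 0.55) and PIF7 (AT5G61270, 3.50 ± 0.46), whose proteins promote growth and restrain photomorphogenesis, and the small B-box gene BBX30 (AT4G15248, 3.98 ± 0.55) were higher on both scales. BBX20 (AT4G39070), a B-box partner of HY5, was the gene called lower, with 15.1, 22.6, 8.63, 26.9 and 22.3 CPM at 6 h and 6.36, 6.27, 3.24, 2.72 and 3.41 CPM in L. The ranges did not overlap (-2.12 ± 0.45, adjusted p = 0.000177; TMM -3.89, 8.64e-11).

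HY5 (AT5G11260), the bZIP factor central to photomorphogenesis, had 91.8, 70.4, 25.3, 56.6 and 39.8 CPM at 6 h and 123, 145, 40.7, 44.0 and 18.9 CPM in L, with overlapping groups (0.39 ± 0.49, adjusted p = 0.455). Relative to the typical gene it was lower (-1.61, 0.00304). Its homologue HYH (AT3G17609) had 279.8 ± 97.9 CPM at 6 h and 793 ± 548 CPM in L (1.503 ± 0.55, adjusted p = 0.0132; 1.099 without L replicate 2 with the call lost), which turned to -0.43 under TMM scaling (0.303, not called). BBX32 (AT3G21150), a B-box repressor of HY5 action, had 11.8 ± 2.49 CPM at 6 h and 71.9 ± 56.5 CPM in L (2.60 ± 0.55, adjusted p = 0.000172; TMM 0.58, 0.301). Of 12 photoreceptor genes 11 were higher per fly RNA, and 4 higher and 2 lower under TMM scaling. Over all genes these shares were 80.9%, 18.6% and 15.6%. Those most changed were PHYE (AT4G18130, 2.88 ± 0.51), for a phytochrome, PHOT2 (AT5G58140, 2.54 ± 0.56), for a blue light receptor of chloroplast movement, ZTL (AT5G57360, 2.46 ± 0.46), for a blue light receptor of the clock, and CRY1 (AT4G08920, 2.28 ± 0.45), for a cryptochrome. PHYA (AT1G09570), for the phytochrome that accumulates in darkness, had 32.5 ± 12.6 CPM at 6 h and 60.8 ± 28.6 CPM in L and was not called (0.90 ± 0.44, adjusted p = 0.056). It was called lower under TMM scaling (-0.89, 0.00546), and called higher per fly RNA without L replicate 3 (1.1) or 6 h replicate 4 (1.04) and in the fit blocked by replicate number (0.90, adjusted p = 0.0254).

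The clock lists lay at the opposite ends of all lists. The clock is a loop in which the morning factors CCA1 and LHY repress evening genes and the PRR proteins repress CCA1 and LHY in turn. All 9 of 9 morning genes were higher in L per fly RNA and 8 under TMM scaling (medians 4.14 and 2.25). Of 9 afternoon and evening genes 3 were lower per fly RNA and 8 under TMM scaling (medians -0.69 and -2.60). Without L replicate 5 the evening counts were 6 and 9, with medians of -2.05 and -4.05. The hour of harvest of either group is not given, and its part in these values was not tested.

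CCA1 (AT2G46830) had 3.15, 9.03, 2.89, 18.3 and 14.97 CPM at 6 h and 1014, 1219, 395, 412 and 106 CPM in L. All L libraries were above all 6 h libraries, and L replicate 5 was the lowest of them (6.03 ± 0.72, adjusted p = 8.24e-08; TMM 4.27, 2.12e-07). LHY (AT1G01060) had 3.34, 9.36, 3.90, 19.9 and 17.2 CPM at 6 h and 1227, 1571, 640.2, 354 and 34.3 CPM in L, with the same order (6.16 ± 0.90, adjusted p = 2e-06; TMM 4.42). PRR9 (AT2G46790, 4.94 ± 0.62), the first of the PRR repressors of the day, and LNK2 (AT3G54500, 4.45 ± 0.58), for a coactivator, were higher on both scales.

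ELF4 (AT2G40080), a subunit of the evening complex, had 89.4, 63.6, 40.3, 30.5 and 34.1 CPM at 6 h and 4.42, 0.808, 0.393, 3.14 and 15.5 CPM in L. The L libraries were all lower, L replicate 5 least so (-3.41 ± 0.65, adjusted p = 5.18e-05; TMM -5.39; -4.59 without L replicate 5). PRR3 (AT5G60100), of the same family as PRR5, was lower (-1.80 ± 0.54, adjusted p = 0.00329). TOC1 (AT5G61380), the evening repressor, had 55.1, 70.9, 31.3, 41.7 and 44.2 CPM at 6 h and 9.37, 11.5, 5.69, 20.5 and 55.6 CPM in L. L replicate 5 lay within the 6 h range and the other L libraries below it (-1.25 ± 0.48, adjusted p = 0.0191; TMM -3.099, 1.47e-05). The TOC1 call was lost without any one of L replicates 1, 2 and 3 or 6 h replicate 2 (-1.096 to -1.003), and the value was -2.05 without L replicate 5.

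PRR5 (AT5G24470) depended on the same library. It had 23.604, 23.7, 11.5, 13.1 and 16.6 CPM at 6 h and 1.77, 2.02, 0.981, 2.93 and 126 CPM in L, so 4 L libraries were below all 6 h libraries and L replicate 5 was above all of them. The fold change over all libraries was 0.59 ± 0.78 (adjusted p = 0.471; TMM -1.19), and -3.23 with a call without L replicate 5. GI (AT1G22770), an afternoon regulator, had 28.1 ± 13.0 CPM at 6 h and 40.6 ± 34.9 CPM in L (0.53 ± 0.51, adjusted p = 0.33; TMM -1.22, 0.0258). LUX (AT3G46640), the DNA-binding subunit of the evening complex, had 38.3 ± 7.97 CPM at 6 h and 28.0 ± 15.6 CPM in L (-0.45 ± 0.41; TMM -2.36, 1.11e-05), its homologue BOA (AT5G59570) -0.44 ± 0.48 (TMM -2.47), and FKF1 (AT1G68050), for a blue light receptor of the afternoon, -0.69 ± 0.81 (TMM -2.60). These 4 were not called per fly RNA, though FKF1 was lower and called without L replicate 5 (-4.74).

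**Figure D3:**
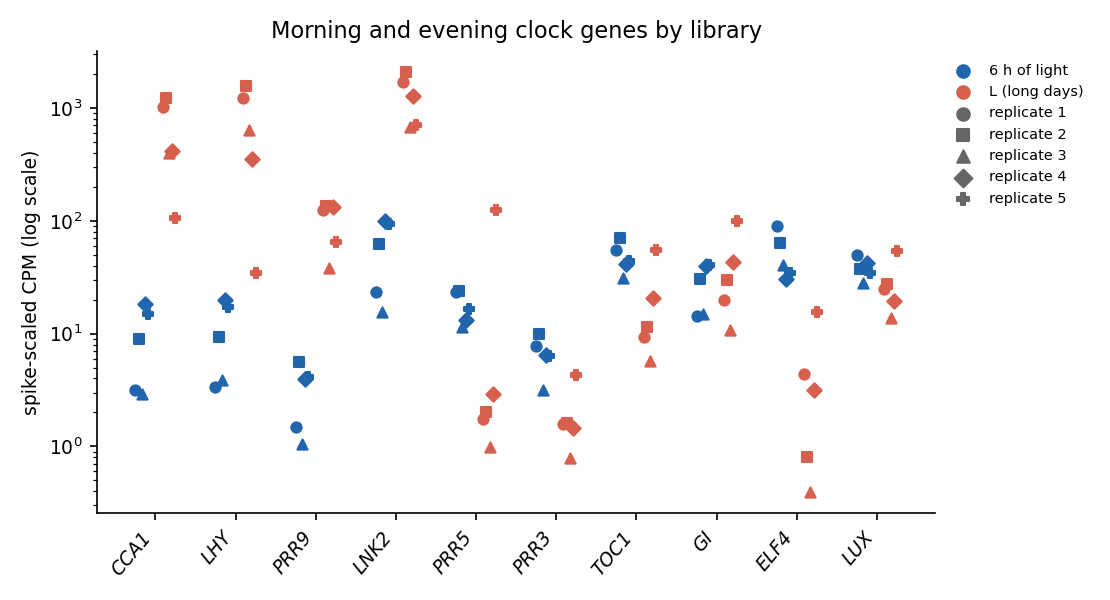
Spike-scaled CPM of 4 morning genes (CCA1, LHY, PRR9, LNK2) and 6 afternoon and evening genes (PRR5 to LUX) in each 6 h and L library, on a log axis, with symbols for the replicates. Morning genes are separated with L above, and in PRR5, PRR3, TOC1, GI, ELF4 and LUX the plus sign of L replicate 5 stands above the other L libraries.

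Evening genes are known to be repressed by CCA1 and LHY through the evening element AAAATATCT. A search of both strands in the 250 bases before each annotated gene start found it in 5 of 9 evening genes, in 0 of 9 morning genes and in 648 of 27443 protein-coding genes (2.36%). ELF4 and PRR3, called lower per fly RNA, had no full match in these windows. The ELF4 window opens with aaatatct, the element without its first A, and a match across the window's edge was not searched for. Of the 5 genes with a match, TOC1 alone was called lower per fly RNA. What part the element had in the values was not tested. The windows of the 5 are shown because all 5 genes are described above, and capitals mark the evening element, which reads AGATATTTT where it lies on the other strand. The sequences are 5′ to 3′ on the strand of the gene, from RefSeq's annotation of TAIR10.1, and were located by gene identifier, since the deposited counts carry no coordinates.
PRR5 (chr5:8358547-8358796, reverse strand): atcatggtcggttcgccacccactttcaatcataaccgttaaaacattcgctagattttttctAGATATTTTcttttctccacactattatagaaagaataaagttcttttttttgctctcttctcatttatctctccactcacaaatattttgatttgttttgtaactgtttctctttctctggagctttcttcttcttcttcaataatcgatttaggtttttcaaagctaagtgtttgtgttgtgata
TOC1 (chr5:24674713-24674962, forward strand): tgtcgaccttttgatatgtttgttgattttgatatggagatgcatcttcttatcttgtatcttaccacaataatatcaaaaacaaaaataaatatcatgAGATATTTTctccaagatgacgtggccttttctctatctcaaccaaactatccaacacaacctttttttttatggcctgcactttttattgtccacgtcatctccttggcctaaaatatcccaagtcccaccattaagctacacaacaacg
LUX (chr3:17182792-17183041, forward strand): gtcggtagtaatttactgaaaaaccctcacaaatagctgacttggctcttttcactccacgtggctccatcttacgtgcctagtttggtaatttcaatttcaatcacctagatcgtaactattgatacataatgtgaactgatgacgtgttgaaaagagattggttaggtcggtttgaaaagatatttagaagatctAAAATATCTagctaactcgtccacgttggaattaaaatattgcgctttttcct
BOA (chr5:24003638-24003887, forward strand): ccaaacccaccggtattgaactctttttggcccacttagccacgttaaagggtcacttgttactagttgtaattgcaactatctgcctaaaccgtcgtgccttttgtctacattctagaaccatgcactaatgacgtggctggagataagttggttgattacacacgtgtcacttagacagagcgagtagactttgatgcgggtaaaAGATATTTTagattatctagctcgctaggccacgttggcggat
FKF1 (chr1:25508389-25508638, forward strand): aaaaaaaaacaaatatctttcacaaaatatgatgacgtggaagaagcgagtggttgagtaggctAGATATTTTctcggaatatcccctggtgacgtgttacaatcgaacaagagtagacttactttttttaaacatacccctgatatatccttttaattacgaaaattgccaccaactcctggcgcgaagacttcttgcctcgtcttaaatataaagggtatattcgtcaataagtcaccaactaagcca

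The G-box CACGTG, a site bound by HY5 and by phytochrome-interacting factors, was found in 4 of 9 morning genes, in 2 of 9 evening genes and in 1780 of all 27443 windows (6.49%). The windows of the 3 most changed morning genes that hold it are shown with the G-box in capitals. A match of letters is a description and not evidence that a factor bound there.
LHY (chr1:37872-38121, reverse strand): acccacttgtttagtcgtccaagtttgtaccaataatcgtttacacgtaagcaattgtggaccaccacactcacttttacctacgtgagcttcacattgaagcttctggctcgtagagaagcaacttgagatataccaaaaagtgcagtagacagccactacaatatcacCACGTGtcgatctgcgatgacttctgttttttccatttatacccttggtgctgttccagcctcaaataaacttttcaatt
CCA1 (chr2:19245341-19245590, forward strand): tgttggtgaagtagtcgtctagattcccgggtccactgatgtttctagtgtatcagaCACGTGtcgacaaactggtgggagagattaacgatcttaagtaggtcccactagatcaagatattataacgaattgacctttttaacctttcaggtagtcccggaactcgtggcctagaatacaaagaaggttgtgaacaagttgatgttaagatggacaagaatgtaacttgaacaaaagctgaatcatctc
PRR9 (chr2:19232357-19232606, forward strand): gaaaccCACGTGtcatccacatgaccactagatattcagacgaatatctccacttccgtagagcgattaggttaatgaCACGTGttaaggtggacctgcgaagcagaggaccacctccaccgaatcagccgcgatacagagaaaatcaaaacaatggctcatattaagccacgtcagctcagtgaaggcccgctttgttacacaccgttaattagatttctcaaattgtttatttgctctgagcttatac

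Genes for the plastid's own expression machinery lay mostly below the typical gene. Of 21 genes for sigma factors, plastid polymerases and their associated proteins 8 were higher per fly RNA, and 3 were higher and 13 lower under TMM scaling (medians 0.83 and -0.97). The medians per fly RNA were 1.24 within replicates 1 and 2 and 0.87 within replicates 3 to 5. The 3 higher under both scalings were the sigma factor genes SIG5 (AT5G24120, 3.25 ± 0.51), SIG1 (AT1G64860, 2.80 ± 0.53) and SIG3 (AT3G53920, 2.40 ± 0.49), whose proteins direct the bacterial-type plastid polymerase to promoters. SIG5 had 25.8, 32.2, 18.6, 34.9 and 21.2 CPM at 6 h and 374, 377, 127, 235 and 149 CPM in L, with no overlap. SIG6 (AT2G36990), used early in greening, was higher per fly RNA (2.03 ± 0.49) and not called under TMM scaling (0.24, 0.163). PTAC12 (AT2G34640), a polymerase-associated protein also active in phytochrome signalling, had 34.7, 60.2, 22.4, 98.8 and 87.4 CPM at 6 h and 54.3, 53.4, 30.5, 108 and 46.5 CPM in L. Its groups overlapped (-0.05 ± 0.55, adjusted p = 0.926), and it was lower relative to the typical gene (-1.79, 8.35e-05).

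The mitochondrial share of the counts was lower in L, and plastid values overlapped between the groups. Plastid counts per Drosophila count were 4.60 ± 2.40 at 6 h and 10.9 ± 7.26 in L, a log2 difference of 1.06 ± 0.70 with overlapping groups (two-sided exact permutation p = 0.183, adjusted 0.238). It was 0.55 within replicates 1 and 2 and 1.397 within replicates 3 to 5, and passed when labels were exchanged only within those sets (adjusted exact permutation p = 0.0417). Mitochondrial counts per Drosophila count were 0.0629 ± 0.0266 and 0.0883 ± 0.0342 (0.51 ± 0.36, exact permutation p = 0.206, adjusted 0.238). They were higher in L in 5 of 5 pairs of like number, and the block gave an exact sign-flip p of 0.0625, the smallest possible (adjusted 0.0781), while exchanging labels only within the sets of replicates gave an adjusted exact permutation p of 0.05. The mitochondrial share of Arabidopsis counts was 0.100%, 0.0806%, 0.0961%, 0.0265% and 0.0473% at 6 h and 0.0220%, 0.0259%, 0.0224%, 0.0139% and 0.0203% in L. All L shares were below all 6 h shares (log2 difference -1.62 ± 0.40, exact permutation p = 0.00794, adjusted 0.0198; with the replicate block adjusted 0.0781). It was -1.91 within replicates 1 and 2 and -1.42 within replicates 3 to 5. The plastid share was 5.02% ± 2.83 at 6 h and 2.96% ± 2.17 in L, lower in L in 5 of 5 pairs of like number (-1.06 ± 0.81, exact permutation p = 0.238; with the replicate block 0.0625, the smallest possible, adjusted 0.0781).

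Of 140 plastid entries 107 were tested, 41 were higher and 1 lower per fly RNA, and 6 were lower under TMM scaling, 3 without L replicate 1 (medians 1.36 and -0.38). With the replicate block 70 were higher per fly RNA, and 21 were lower under TMM scaling. The entry called lower per fly RNA, ATCG00940-ATCG00950, merges 2 genes and rests on 1 library: it had 4863 counts in 6 h replicate 1 and 25 to 87 in the other 9 libraries. Its value of -2.32 turned to 2.61, called higher, without 6 h replicate 1, and its call was lost without L replicate 3 (-2.10). Of 126 mitochondrial entries 54 were tested and 18 were higher per fly RNA, 10 without 6 h replicate 3 and 28 with the replicate block. Under TMM scaling 4 were lower, and 12 with the replicate block. Organelle shares depend on how RNA was selected for these libraries, which the sources used here do not state.

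Translation and transcription genes were mostly higher per fly RNA, as were 80.9% of all genes. Over all replicates they lay close to the typical gene, with differences between the replicate sets given below. All 31 of 31 genes of cytosolic ribosomal proteins were higher per fly RNA, but under TMM scaling the calls came down to 1, which was lower, with 3 lower without L replicate 3 and that call lost without L replicate 4 (medians 1.56 and -0.26). RPS10B (AT5G41520, 2.08 ± 0.52; TMM 0.23) and RPS5B (AT2G37270, 1.88 ± 0.54; TMM 0.07), of the small subunit, were the most changed. Of 21 nucleolar ribosome biogenesis genes 19 were tested and all were higher per fly RNA (medians 1.59 and -0.13; largest for REIL1, AT4G31420, 2.02 ± 0.45). RNA polymerase II subunits gave 11 of 13 higher per fly RNA and 3 lower under TMM scaling, the latter 1 without L replicate 1. NRPB1 (AT4G35800), its largest subunit, had 13.8 ± 8.13 CPM at 6 h and 66.7 ± 19.2 CPM in L (2.28 ± 0.54, adjusted p = 0.000454; TMM 0.53). The ribosomal protein median per fly RNA was 2.26 within replicates 1 and 2 and 1.02 within replicates 3 to 5, and under TMM scaling it turned from 0.05 to -0.40. The ribosome biogenesis median was 2.63 and 0.76 in these sets per fly RNA, and under TMM scaling it turned from 0.45 to -0.50.

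Cell division genes had a median below that of all genes. Of 30 cell cycle and replication genes 14 were higher per fly RNA (9 without 6 h replicate 3, 28 with the replicate block), and 3 were lower under TMM scaling, CDKB1;1, CYCD3;1 and CYCD3;2 (11 with the block, 1 without L replicate 1, 7 without L replicate 3). Medians were 1.11 and -0.54. RNR2A (AT3G23580), for ribonucleotide reductase, had 28.7, 30.5, 11.5, 30.7 and 25.4 CPM at 6 h and 245, 273, 74.1, 37.9 and 27.1 CPM in L. L replicates 1 and 2 were far above the 6 h range and L replicate 5 lay within it (2.37 ± 0.57; TMM 0.42). RBR1 (AT3G12280, 2.06 ± 0.54), for the retinoblastoma homologue, CDC20.1 (AT4G33270, 1.75 ± 0.54) and TSO2 (AT3G27060, 1.66 ± 0.54; TMM -0.06) were higher per fly RNA only. PCNA1 (AT1G07370), the sliding clamp of replication, had 19.3 ± 12.7 CPM at 6 h and 29.0 ± 3.13 CPM in L and was not called (0.59 ± 0.60, adjusted p = 0.352; TMM -1.07, 0.0536). Of 5 brakes on division 4 were higher per fly RNA, a share near the 80.9% of all genes. SMR1 (AT3G10525), an inhibitor of cyclin-dependent kinases, had 51.3 ± 25.7 CPM at 6 h and 411 ± 110.0 CPM in L. Its fold change was 3.003 ± 0.56 per fly RNA and 1.17 under TMM scaling (adjusted p = 0.00564).

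Stomatal genes were higher or lower than the typical gene according to the member. Of 23 genes 14 were higher per fly RNA, against 80.9% of all genes. Under TMM scaling 6 were higher and 14 lower, against 18.6% and 15.6% of all genes (medians 1.08 and -0.77). The 6 were FAMA, FLP, MYB88, MYB60, SLAC1 and HT1, and the 14 were SPCH, MUTE, SCRM, SCRM2, TMM, EPF1, EPF2, EPFL9, BASL, POLAR, ERL1, ERL2, ERECTA and OST1. FAMA (AT3G24140), which ends division of the guard mother cell, had 3.58, 4.298, 2.37, 4.63 and 5.18 CPM at 6 h and 39.1, 42.8, 20.12, 33.3 and 31.5 CPM in L. SLAC1 (AT1G12480), the guard cell anion channel, had 0.381, 0.510, 0.219, 0.629 and 0.783 CPM and 5.13, 8.29, 2.94, 8.80 and 6.99 CPM. In both genes every L library was above every 6 h library (3.06 ± 0.46 and 3.68 ± 0.57; TMM 1.19 and 1.85). MYB88 (AT2G02820, 3.75 ± 0.56), which limits that division, and HT1 (AT1G62400, 3.52 ± 0.46), a guard cell kinase of the CO2 response, were higher likewise.

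EPF2 (AT1G34245), a peptide of early lineage cells that limits entry into the lineage, had 36.3, 27.2, 20.4, 32.3 and 32.1 CPM at 6 h and 23.7, 24.05, 9.42, 26.6 and 17.7 CPM in L. It was not called per fly RNA (-0.55 ± 0.47, adjusted p = 0.273) and lower under TMM scaling (-2.51, 3.09e-07). SPCH (AT5G53210), which starts the lineage, had 15.1 ± 7.13 CPM at 6 h and 27.1 ± 9.31 CPM in L (0.85 ± 0.53, adjusted p = 0.139; called with the replicate block at 1.07, adjusted p = 0.024), and its value turned to -0.96 under TMM scaling (0.0108). The summed level of the 23 stomatal genes was 256 to 627 CPM at 6 h and 590.5 to 1576 CPM in L.

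**Figure D4:**
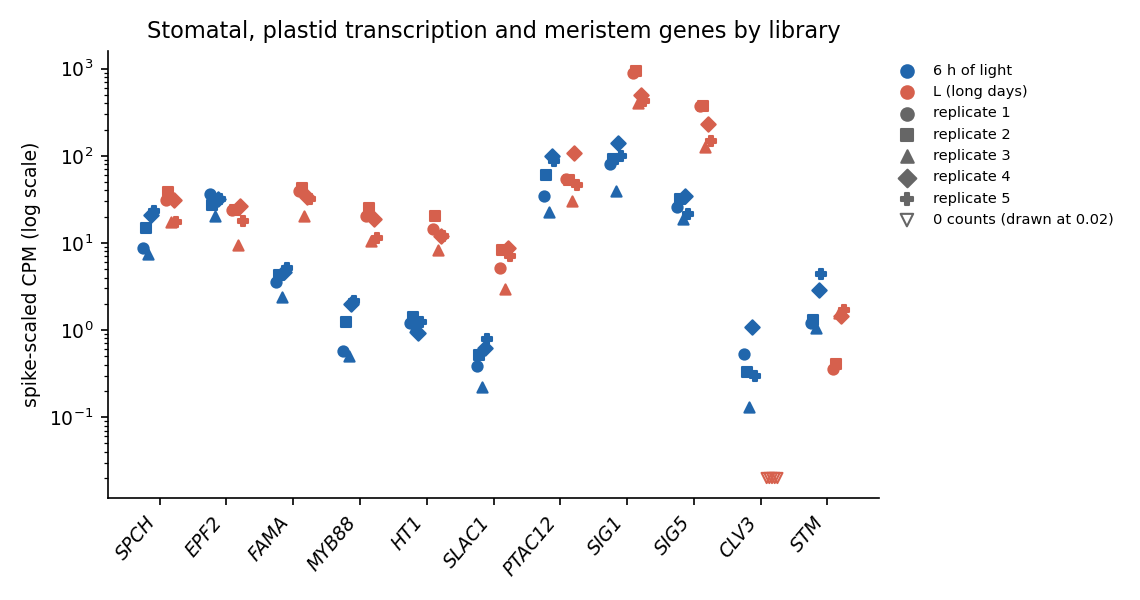
Spike-scaled CPM of stomatal genes (SPCH to SLAC1), plastid transcription genes (PTAC12 to SIG5) and shoot meristem genes (CLV3, STM) in each 6 h and L library, on a log axis, with symbols for the replicates and open triangles for 0 counts. FAMA, MYB88, HT1, SLAC1, SIG1 and SIG5 are separated with L above, SPCH, EPF2 and PTAC12 overlap, and CLV3 is at 0 in all 5 L libraries.

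Markers of neighbouring tissues were read beside these groups. The shoot meristem list held 8 genes, 7 tested, with 1 lower per fly RNA and 5 under TMM scaling, and a summed level of 3.75 to 14.04 CPM at 6 h and 2.12 to 10.06 CPM in L. CLV3 (AT2G27250), the stem cell peptide, had 0.525, 0.328, 0.131, 1.09 and 0.293 CPM at 6 h and 0 in all L libraries, at least 4.95-fold lower against 3 counts over the group. STM (AT1G62360), the meristem homeobox gene, had 2.16 ± 1.44 CPM at 6 h and 1.0998 ± 0.664 CPM in L (-0.94 ± 0.57, adjusted p = 0.123; TMM -2.48, 0.000198). Trichome genes, of hairs that cotyledons lack, numbered 3, 2 of them tested, and summed to 1.69 to 6.17 CPM at 6 h and 14.8 to 83.1 CPM in L, and TRY (AT5G53200), an inhibitor of hair fate, was higher (3.91 ± 0.66; TMM 2.03). Root markers summed to at most 1.09 CPM at 6 h and to 1.18 to 9.22 CPM in L (medians 0.364 and 6.01), with WOX5 at 0 in both groups. PIN2 (AT5G57090), a root auxin exporter, was the 1 of 7 root genes tested and was higher per fly RNA (2.23 ± 0.71; TMM 0.44). What part adjoining meristem or leaf tissue had in the groups' differences was not tested.

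All 9 of 9 vascular markers were higher per fly RNA and 6 under TMM scaling (medians 2.81 and 0.87), against 80.9% and 18.6% of all genes. The secondary wall cellulose synthase genes IRX5 (AT5G44030, 3.21 ± 0.62), IRX1 (AT4G18780, 2.96 ± 0.62) and IRX3 (AT5G17420, 2.87 ± 0.63) and the phloem protein gene SEOR1 (AT3G01680, 2.84 ± 0.47) led them. Of 4 epidermal markers 3 were higher per fly RNA, and PDF1 (AT2G42840) was lower, with 360.2, 383, 230.3, 676 and 669.6 CPM at 6 h and 102, 149.8, 99.0, 511 and 176 CPM in L. L replicate 4 lay within the 6 h range (-1.16 ± 0.52, adjusted p = 0.0383; TMM -2.96, 4.65e-07). The PDF1 call was lost without any one of L replicates 1, 2, 3 and 5 or 6 h replicates 4 and 5 (-1.11 to -0.98), and the value was -1.82 without L replicate 4.

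Cuticle genes were called in both directions. Of 24 genes 19 were tested. Per fly RNA 13 were higher and 2 lower, against 80.9% and 0.728% of all genes. Under TMM scaling 4 were higher and 8 lower, against 18.6% and 15.6% of all genes. CER6 (AT1G68530, 3.28 ± 0.49) and KCS1 (AT1G01120, 2.53 ± 0.50), for enzymes that lengthen wax acids, CER5 (AT1G51500, 2.77 ± 0.50), for a wax exporter, and the wax regulator gene MYB96 (AT5G62470, 2.61 ± 0.45) were higher on both scales. CER1 (AT1G02205), for an enzyme of alkane synthesis, had 6.63, 19.7, 6.59, 56.4 and 37.4 CPM at 6 h and 1.77, 1.82, 3.93, 2.095 and 3.92 CPM in L. The lipid transfer protein gene LTP2 (AT2G38530) had 246, 432, 272, 876 and 777 CPM and 19.8, 43.7, 123, 201 and 85.4 CPM. In both genes the L libraries were all below the 6 h libraries (-3.21 ± 0.73 and -2.46 ± 0.59, adjusted p = 0.000324 and 0.000526; TMM -4.59 and -4.01).

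Of 30 expansion growth genes 29 were tested, 24 were higher and 1 lower per fly RNA, and 7 and 5 under TMM scaling (medians 1.98 and 0.12). Of all genes 80.9% were higher per fly RNA, and 18.6% higher and 15.6% lower under TMM scaling. The auxin response repressor genes IAA5 (AT1G15580, 5.27 ± 0.94), IAA1 (AT4G14560, 3.95 ± 0.56) and IAA19 (AT3G15540, 3.93 ± 0.63) were higher on both scales. IAA5 had 0.191, 0.255, 0.0876, 0.286 and 0.196 CPM at 6 h and 11.7, 12.1, 6.57, 8.59 and 0 CPM in L, with no counts in L replicate 5. The small auxin-induced gene SAUR10 (AT2G18010) was higher per fly RNA (3.69 ± 0.92) and not called under TMM scaling (1.78, 0.118). GA2OX2 (AT1G30040), for an enzyme that inactivates gibberellin, was lower (8.03 ± 3.09 CPM at 6 h and 2.96 ± 1.89 CPM in L; -1.46 ± 0.53, adjusted p = 0.0134; TMM -3.33).

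Genes of seed reserves were called in both directions. Of 17 genes for using seed oil 15 were higher and 1 lower per fly RNA, and 3 and 2 under TMM scaling (5 lower without L replicate 5). Over all genes these shares were 80.9% and 0.728% per fly RNA, and 18.6% and 15.6% under TMM scaling. The members higher on both scales, PMDH2 (AT5G09660, 3.72 ± 0.53) and PMDH1 (AT2G22780, 2.26 ± 0.50) for peroxisomal malate dehydrogenase and CTS (AT4G39850, 2.41 ± 0.50) for the peroxisomal importer of fatty acids, also act outside oil use, the PMDH genes in photorespiration and CTS in jasmonate synthesis. LACS7 (AT5G27600, 2.27 ± 0.53), for an acyl-CoA synthetase, was higher per fly RNA. ICL (AT3G21720), for the isocitrate lyase of the glyoxylate cycle, had 14.97, 84.4, 28.4, 101 and 74.5 CPM at 6 h and 7.95, 16.8, 18.1, 43.6 and 10.4 CPM in L. It was lower (-1.65 ± 0.63, adjusted p = 0.0169; TMM -3.30, 2.94e-05), although the groups overlapped. Of 11 seed storage genes 2 passed the count filter, and the 11 genes summed to 0.701 to 4.86 CPM at 6 h and 1.77 to 4.42 CPM in L.

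Of 13 dark-inducible genes 10 were higher per fly RNA and 2 under TMM scaling, against 80.9% and 18.6% of all genes. The list's median per fly RNA was 1.42 within replicates 1 and 2 and 2.39 within replicates 3 to 5. Under TMM scaling it changed sign between these sets (-0.76 and 0.68). There it was 0.09 over all libraries and -0.37 without L replicate 5. SEN1 (AT4G35770), a marker of sugar starvation and darkness, had 19.5, 56.1, 6.75, 5.89 and 4.89 CPM at 6 h and 1351, 1866, 304, 103 and 594 CPM in L, with no overlap (5.50 ± 0.90, adjusted p = 8.94e-06; TMM 3.49; 6.51 without 6 h replicate 2). ASN1 (AT3G47340), for an asparagine synthetase made in the dark, had 10.01, 31.4, 7.16, 3.1998 and 1.61 CPM and 63.8, 148, 22.3, 114 and 402 CPM, highest in L replicate 5 (3.81 ± 0.95; TMM 1.86, 0.183; 3.03 without L replicate 5 and 4.77 without 6 h replicate 2). ETFQO (AT2G43400, 3.32 ± 0.52) and MCCA (AT1G03090, 2.83 ± 0.62; 3.47 without 6 h replicate 2) of amino acid breakdown were higher, and the dormancy-associated gene DRM1 (AT1G28330) was not called, with 22.3, 16.0, 19.9, 92.6 and 298 CPM in L against 50.4 ± 21.7 CPM at 6 h (0.83 ± 0.63; TMM -1.04).

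Counts of nutrient and defence genes are set against the 80.9% of all genes called higher per fly RNA and the 18.6% called higher under TMM scaling. In nitrogen and sulphur uptake and assimilation 16 of 17 genes were tested and 15 were higher per fly RNA, 8 higher and 1 lower under TMM scaling (2 lower without L replicate 5). The nitrate transporter genes NRT1.5 (AT1G32450, 5.93 ± 0.74; 6.93 without 6 h replicate 4) and NRT1.1 (AT1G12110, 3.37 ± 0.53) and the sulphate reduction genes APR1 (AT4G04610, 3.93 ± 0.71; 4.55 without 6 h replicate 4) and APR2 (AT1G62180, 3.46 ± 0.66) led. Of 30 glucosinolate genes, for sulphur-rich defence compounds, 20 passed the count filter and the other 10 had too few counts. Several had very few counts at 6 h and passed through other groups, so the filter in part fixed that these 20 were higher per fly RNA and 15 under TMM scaling, and the counts are no support for the list.

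CYP83A1 (AT4G13770), of aliphatic glucosinolate synthesis, had 15.2, 2.83, 21.2, 4.82 and 2.39 CPM in L and 3 counts in all over the 6 h libraries, a pooled ratio of 494 (95% interval 168 to 2408). IPMDH1 (AT5G14200), for an isopropylmalate dehydrogenase of chain elongation, had 0.238, 0.219, 0.110, 0.229 and 0.196 CPM at 6 h and 12.7, 6.67, 19.3, 11.7 and 7.16 CPM in L (5.87 ± 0.62; TMM 4.24). IPMI1 (AT3G58990, 7.78 ± 1.05; 9.23 without 6 h replicate 1) and MAM1 (AT5G23010, 5.53 ± 1.02; 6.29 without 6 h replicate 5), of the same elongation cycle, rest on few 6 h counts. Of 25 defence genes 18 were tested, 16 higher per fly RNA, 6 higher and 1 lower under TMM scaling (2 lower without L replicate 3). They included PR5 (AT1G75040, 5.75 ± 0.80), a marker of salicylic acid responses, and the jasmonate synthesis genes AOS (AT5G42650, 4.77 ± 0.56), LOX2 (AT3G45140, 4.71 ± 0.82; 5.41 without 6 h replicate 4) and AOC2 (AT3G25770, 3.23 ± 0.70; 2.48 without L replicate 5).

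Heat shock genes had values in L that differed widely between replicates. Of 12 genes 8 were higher, a smaller share than the 80.9% of all genes, and 1 lower per fly RNA, and 3 and 3 under TMM scaling (5 higher without L replicate 5). The cochaperone gene ROF2 (AT5G48570) had 6.25, 7.10, 2.87, 8.57 and 8.51 CPM at 6 h and 915, 947, 167, 28.5 and 10.7 CPM in L (5.96 ± 0.86; TMM 3.96). HSP17.6II (AT5G12020), a cytosolic small heat shock protein, had 10.6, 20.7, 10.2, 11.2 and 6.70 CPM at 6 h and 977, 1129, 199, 2.305 and 3.07 CPM in L (5.28 ± 0.99; 4.64 without L replicate 2). L replicates 1 to 3 were far above the 6 h libraries, and L replicates 4 and 5 were below all of them. HSP70 (AT3G12580, 3.75 ± 0.78) and HSP90.1 (AT5G52640, 3.60 ± 0.78; 2.92 without L replicate 2), for inducible chaperones, were also highest in L replicates 1 to 3. The list's median was 3.52 within replicates 1 and 2 and 1.26 within replicates 3 to 5. HSP22 (AT4G10250), a small heat shock protein of the endoplasmic reticulum, went the other way, with 8.92, 16.1, 2.45, 6.57 and 4.99 CPM at 6 h and 3 counts in all over the L libraries, a pooled ratio of 76.1 for 6 h over L (95% interval 25.97 to 369.7).

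The genes that differed most overall were picked among those called on both scales, with no overlap and at least 10 CPM in the higher group, 3161 higher and 16 lower. Of the 12 most increased, 4 are known from iron uptake and its control. Several of the 12 had 0 to 3 counts at 6 h and passed the count filter through groups where they were high. The count of 4 is therefore no support for a theme. BHLH100 (AT2G41240) and bHLH39 (AT3G56980), for transcription factors of the iron deficiency response, had no counts at 6 h. In L they had 33.6, 64.7, 14.5, 32.5 and 5.97 CPM and 10.3, 16.6, 3.93, 28.3 and 8.01 CPM, at least 1331-fold and at least 590.1-fold higher against 3 counts over the 6 h group. Their relative bHLH38 (AT3G56970) had 13.6, 23.2, 6.57, 31.6 and 4.94 CPM in L and 3 counts over the 6 h libraries, a pooled ratio of 615 (95% interval 209 to 2992). FRO6 (AT5G49730), for a ferric reductase of green tissue, had 0.334, 0.401, 0.153, 0.286 and 0.342 CPM at 6 h and 178, 184, 71.3, 294 and 318 CPM in L, with every L library far above the 6 h range (9.43 ± 0.70, adjusted p = 1.78e-11; TMM 7.55). The summed root markers given above were also higher in L, and their part in the values of the iron genes was not tested.

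The others of the 12 had no shared role known here. BBX16 (AT1G73870), of the B-box family, had 0.429, 0.583, 0.416, 1.49 and 1.57 CPM at 6 h and 648, 542, 269, 214 and 66.1 CPM in L (8.62 ± 0.81; TMM 6.81). AT3G28270 had 0.381, 0.291, 0.110, 0.343 and 0 CPM and 583, 677, 340.4, 157 and 61.7 CPM (10.67 ± 0.89). The cytochrome P450 gene CYP71A22 (AT3G48310) gave 8.94 ± 0.69 and AT5G05250 8.79 ± 1.01 (9.56 without 6 h replicate 4). AT1G07367 and AT1G09505 had no counts at 6 h and 19.3 ± 17.3 and 11.4 ± 5.92 CPM in L, at least 848-fold and at least 503-fold higher. ACS11 (AT4G08040), for an enzyme of ethylene synthesis, and the receptor kinase gene RK2 (AT1G65800) had pooled ratios of 1873 (95% interval 334 to 74150.1) and 878 (299 to 4268) on 1 and 3 counts at 6 h.

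The 12 most decreased had CP1 (AT4G36880), for a cysteine proteinase, first, at 25.4, 43.3, 12.5, 56.7 and 62.0 CPM at 6 h and 0, 0.808, 1.57, 3.14 and 0.682 CPM in L (-5.01 ± 0.73, adjusted p = 1.88e-06; TMM -6.57; -5.62 without L replicate 4). PCO1 (AT5G15120), for a plant cysteine oxidase that senses oxygen and is itself induced by low oxygen, had 18.7, 20.8, 6.96, 18.8 and 36.5 CPM at 6 h and 1.06, 1.01, 2.06, 4.61 and 1.36 CPM in L (-3.34 ± 0.53; TMM -4.99). The stress transcription factor gene DREB2A (AT5G05410, -1.84 ± 0.51), the arabinogalactan protein gene AGP7 (AT5G65390, -1.83 ± 0.57; -2.57 without L replicate 4) and PRN (AT3G59220, -1.96 ± 0.43), for a pirin, were lower too. AT1G07985 (-2.62 ± 0.62) and AT3G05600 (-2.31 ± 0.53) were the remaining ones beside ELF4, CER1, LTP2, AT5MAT and BBX20 above.

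**Figure D5:**
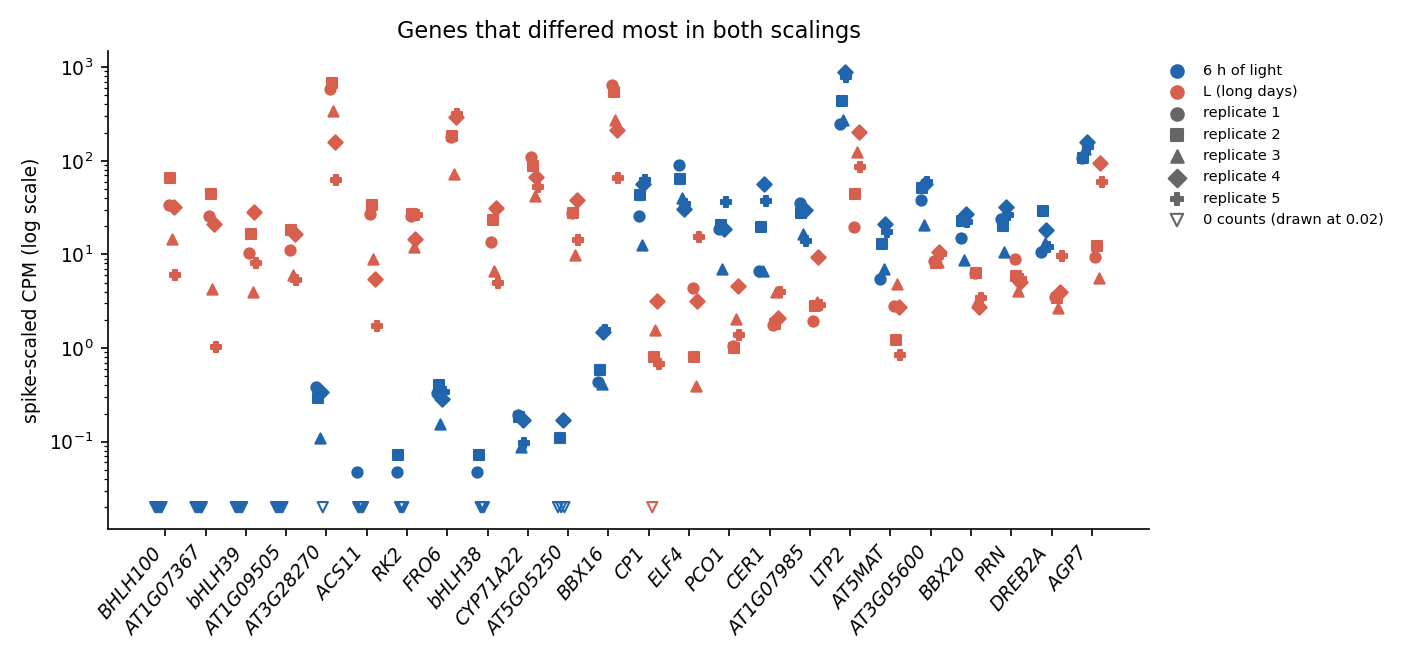
Spike-scaled CPM in each 6 h and L library of the 12 most increased genes (BHLH100 to BBX16) and the 12 most decreased genes (CP1 to AGP7) by the rule above, on a log axis, with symbols for the replicates and triangles at the bottom for 0 counts. The increased genes lie at or below 1.57 CPM in all 6 h libraries, and no gene overlaps between the groups, as the rule required.

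Genes often used to normalise expression, like most genes, were not level per fly RNA. All 12 of 12 reference genes were higher in L per fly RNA, and 4 under TMM scaling (medians 2.06 and 0.25). Of all genes 80.9% and 18.6% were so called, with medians of 1.83 and 0.0021. ACT2 (AT3G18780), for an actin, had 431, 574, 339.7, 1047 and 653 CPM at 6 h and 2950.4, 3012, 1659, 2459 and 1641 CPM in L. All L libraries were above the 6 h libraries (1.94 ± 0.49, adjusted p = 0.000842), and relative to the typical gene it was not called (0.14, 0.617). UBQ10 (AT4G05320) gave 2.39 ± 0.45 (TMM 0.45, 0.153), UBC9 (AT4G27960) 2.62 ± 0.47 (TMM 0.72, 0.0158) and YLS8 (AT5G08290) 2.42 ± 0.47 (TMM 0.54, 0.00578).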

How the data were processed

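RNA-seq was analysed for 5 L and 5 6 h libraries. The deposited values are counts per gene entry, which the authors made from stranded paired-end DNB-seq reads of cotyledon RNA mixed with Drosophila RNA, per the labels' protocols. Salmon 1.9.0, HTSeq, R 4.3.2 and TAIR10 are named in the submitters' processing notes, with no roles given; the sources used here do not say how reads shared by similar genes were counted. Rows without an identifier, 0.123% to 0.204% of counts per library, stayed out of library sizes and tests.

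The counts were scaled by the sum of Drosophila counts (main) or by TMM over Arabidopsis genes. Genes passing edgeR's filter (minimum count 10, minimum total 15) numbered 20615. They were tested with edgeR 4.0.16 (quasi-likelihood, R 4.3.3, limma 3.58.1) in 1 fit of all 25 libraries with group as the only term, and p-values were Benjamini-Hochberg adjusted over all genes. DESeq2 1.42.0 was an alternative. The SE is the log2 fold change divided by the square root of F. The tests were also run on simulated counts that varied less between libraries than these data and held no shift of most genes. That run therefore does not measure error rates here. Ratios of summed counts were compared by two-sided exact permutation over 252 assignments. Intervals and bounds for genes with 0 to 3 counts in a group cover counting error only. No pairing is stated. The L and 6 h libraries of like number deviated together (correlations of 0.11 to 0.37, all 5 above 0.1), so a replicate block was fitted as an alternative. Some unlike numbers correlated more: L replicate 3 gave 0.178 with 6 h replicate 5 and 0.114 with 6 h replicate 3. Pairing by number is therefore not established. Unlike numbers within replicates 1 and 2 or within replicates 3 to 5 correlated at 0.0162 to 0.237 and those across these sets at -0.285 to -0.0689, so numbers cannot be told apart from the sets.

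Named genes were the 4 members per list with the largest changes among those called, genes fixed by role, and the 12 most increased and 12 most decreased genes called on both scales without overlap at 10 CPM or more. Members and lists were chosen with earlier results of these data known. Genes shown outside the rule, including uncalled ones, were chosen after their values were seen. Promoter windows are the 250 bases before the gene start in RefSeq's TAIR10.1 annotation.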

Additional observations from a re-analysis of the deposited data

Results flagged for a closer look

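Of 372 groups of 5 libraries examined for the named genes and ratios, 28 held a library isolated from the rest by Dixon's criterion at the 95% level. For independent groups of normally distributed values that level flags about 1 in 20, or 18.6. The groups here share the same libraries and 4 of the flagged ones had a median of 0, so 18.6 does not measure chance for them. Each value below is the CPM of the isolated library, with the group's median in brackets. L replicate 5 was isolated at the high end in clock, starch, dormancy and stress genes: ISA3 24 (median 6.67), PORB 883 (median 59.2), ELF4 15.5 (median 3.14), PRR3 4.26 (median 1.59), PRR5 126 (median 2.02), FKF1 16.5 (median 0.177), DRM1 298 (median 22.3), DREB2A 9.54 (median 3.54). L replicate 4 was isolated at the high end: PORA 39.6 (median 3.92), ICL 43.6 (median 16.8), LOX2 52.2 (median 17.38), PDF1 511 (median 149.8), AT1G07985 9.43 (median 2.9). Replicate 3 at 6 h was isolated at the low end: BCH2 7.27 (median 23.8), RNR2A 11.5 (median 28.7), IAA1 1.86 (median 5.54), UBC9 57.5 (median 140.0), PHT1;1 0.0657 (median 0.182). Replicate 2 at 6 h was isolated at the high end in dark-inducible genes: SEN1 56.1 (median 6.75), ASN1 31.4 (median 7.16), MCCA 15.4 (median 4.3). In 4 groups with a median of 0 the isolated value was the only one above it: CYP83A1 0.147 in 6 h replicate 5, HSP22 0.294 in L replicate 3, ACS11 0.0477 in 6 h replicate 1, BHLH101 0.0954 in 6 h replicate 1. The rest were CRY1 in L replicate 3 at the low end with 111 (median 266), NRT1.5 in 6 h replicate 4 at the high end with 0.514 (median 0.0954), MGD3 in 6 h replicate 3 at the high end with 3.02 (median 0.587). What these values come from was not tested.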

How the results depend on the processing

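With other scalings and settings the counts of genes higher and lower in L were 3834 and 3223 with TMM over Arabidopsis genes, 4167 and 3401 with DESeq2's median-ratio factors, 13749 and 226 with TMM over Drosophila genes, 14793 and 194 with DESeq2 on Drosophila factors, 82 lower against a 2-fold change, and 229 lower in replicates 1 and 2 alone. Relative to the typical gene a 2-fold change left 757 higher and 452 lower, and replicates 3 to 5 alone 2358 and 1642; called on both scales were then 757 and 69, and 2358 and 89. Leaving out each library gave 15138 to 17308 higher and 108 to 187 lower per fly RNA, 3300 to 3767 and 2750 to 3478 under TMM scaling, and 3300 to 3767 and 103 to 179 on both scales. The nuclear ratio was 2.15 with the replicate block, 2.37 in replicates 1 and 2 and 2.01 in replicates 3 to 5, and the mitochondrial share -1.62, -1.91 and -1.42, each without a call in designs whose smallest p is above 0.05; without single libraries they were 1.91 to 2.37 and -1.93 to -1.45. Plastid counts per fly count (1.06) and the plastid share (-1.06) gained a call when labels were exchanged within the sets of replicates.

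With the replicate block the counts were 17661 and 185 per fly RNA and 4579 and 4047 under TMM scaling; TT4, PHYA and SPCH gained a call, and the block changed no other named gene's call. It moved these list counts by over 1.5 times: cell cycle to 28 higher and 11 lower under TMM, plastid entries to 70 higher per fly RNA and 4 higher and 21 lower under TMM, mitochondrial entries to 28 higher and 1 lower per fly RNA and 1 and 12 under TMM, and under TMM starch to 3, ribosomal proteins to 3, defence to 2 and reference genes to 1 lower and RNA polymerase II to 1 higher. Single libraries moved further list counts: without L replicate 5 there were 3 mitochondrial entries and 1 tetrapyrrole gene lower and 1 seed storage gene higher per fly RNA, and 1 dark-inducible gene lower and 2 brakes on division higher under TMM; lower under TMM were 1 reference gene without L replicate 4 and 1 ribosome biogenesis gene without L replicate 1, and 2 plastid entries were lower per fly RNA without L replicate 2.

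Values of named genes changed sign in 60 of 3793 recomputations. Under TMM scaling they were ISA3 -0.93, PORA -0.92, ELIP2 -0.86, TT4 -0.10, HY5 -1.61, HYH -0.43, PHYA -0.89, GI -1.22, PRR5 -1.19, TSO2 -0.063, PCNA1 -1.07, DRM1 -1.04, SPCH -0.96, FER1 -1.20, FER3 -1.35. With median-ratio factors they were ISA3 -0.92, PORA -0.89, ELIP2 -0.84, TT4 -0.081, HY5 -1.60, HYH -0.42, PHYA -0.88, GI -1.21, PRR5 -1.20, TSO2 -0.047, PCNA1 -1.06, DRM1 -1.04, SPCH -0.94, FER1 -1.19, FER3 -1.34. In replicates 1 and 2 alone they were PORA -3.12, ELIP1 0.36, PRR5 -3.64, DRM1 -1.94, PTAC12 0.18. In replicates 3 to 5 alone they were PORB 0.54, ELIP2 -0.21, HY5 -0.23, FKF1 0.47, FER3 -0.049. With the replicate block they were PRR5 -0.76, PTAC12 0.087. HY5 was -0.10 with DESeq2 on Drosophila factors and -0.18 with TMM over Drosophila genes. Leaving out each library in turn changed the sign for 7 genes, whose ranges were PORA -0.73 to 0.91, PORB -1.44 to 0.26, HY5 -0.003 to 0.63, GI -0.12 to 0.78, PRR5 -3.23 to 0.91, DRM1 -0.42 to 1.101, PTAC12 -0.40 to 0.19. Of 157 called genes 2 changed sign, HYH and TSO2, under Arabidopsis-based scalings, and the calls of MYB111, HYH, TOC1 and PDF1 were lost without 1 library. The cause was not tested. Depth limited genes with 0 to 3 counts in a group, for which bounds or pooled ratios stand in place of fitted values.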

Other observations

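Iron genes were looked at further after the 12 most increased genes were seen, so the genes below were chosen after their values were known. IRT1 (AT4G19690), the root iron importer, had 2.298, 6.47, 1.28, 5.03 and 2.22 CPM in L and no counts at 6 h, at least 152-fold higher against 3 counts over the group. BHLH101 (AT5G04150), of the same family as BHLH100, had a pooled ratio of 477 (95% interval 130.5 to 3960.1) on 2 counts at 6 h. The reductase genes FRO7 (AT5G49740, 5.05 ± 0.59) and FRO3 (AT1G23020, 3.32 ± 0.52), the transporter gene OPT3 (AT4G16370, 3.15 ± 0.60), the regulator genes BTS (AT3G18290, 3.69 ± 0.58) and PYE (AT3G47640, 3.54 ± 0.57) and the nicotianamine synthase gene NAS4 (AT1G56430, 2.99 ± 0.50) were higher on both scales by edgeR, and FRU (AT2G28160, 2.50 ± 0.67), for a root regulator of iron uptake, per fly RNA alone. The 7 root markers, summed, were at 0.153 to 1.09 CPM at 6 h and 1.18 to 9.22 CPM in L (medians 0.364 and 6.01), with WOX5 at 0 in both groups, and their part in these values was not tested. Of the ferritin genes for iron storage, FER4 (AT2G40300) had 173, 124, 47.0, 164 and 128 CPM at 6 h and 79.0, 108, 44.7, 79.0 and 89.0 CPM in L (-0.67 ± 0.46, adjusted p = 0.171; TMM -2.49, 7.66e-09). FER1 (AT5G01600) and FER3 (AT3G56090) were not called per fly RNA (0.68 ± 0.46 and 0.54 ± 0.52), and their values turned to -1.203 and -1.35 under TMM scaling, both called.

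Genes of the phosphate starvation response, likewise chosen after their values were seen, were highest in L replicates 1 and 2. SQD1 (AT4G33030), of sulpholipid synthesis, had 29.0, 52.6, 24.9, 70.0 and 54.6 CPM at 6 h and 2561, 2337, 543, 544 and 198 CPM in L, with no overlap (4.74 ± 0.67; TMM 2.78). The phosphatase gene PS2 (AT1G73010) had 0.668, 4.95, 12.6, 1.9998 and 1.32 CPM and 514, 878, 141, 9.01 and 0.852 CPM, so L replicates 4 and 5 lay within the 6 h range while L replicates 1 to 3 were far above it (6.15 ± 1.04; 5.25 without L replicate 2 and 7.10 without 6 h replicate 3). PEPC1 (AT1G17710, 8.46 ± 1.05; 7.82 without L replicate 2 and 9.10 without 6 h replicate 3), for a phosphatase, MGD3 (AT2G11810, 6.96 ± 1.08; 6.32 without L replicate 2 and 8.19 without 6 h replicate 3) and MGD2 (AT5G20410, 5.64 ± 0.67), of galactolipid synthesis, SQD2 (AT5G01220, 5.12 ± 0.75) and the phosphate transporter genes PHT1;1 (AT5G43350, 5.05 ± 0.73) and PHT1;4 (AT2G38940, 3.96 ± 0.60) were higher on both scales. What the difference between L replicates comes from was not tested.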
